A study of Mus musculus with 24 samples.

Results

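The genes described here encode the proteasome and the enzymes that attach ubiquitin to proteins or take it off. They were followed in mouse HBC-3 hepatoblasts over a week on Matrigel. Members were chosen by symbol, from the families Psma to Psmg, Ube2, Ube3 and Ube4, Usp, Fbxl, Fbxo and Fbxw, Cul, Uba and Uch. Ube2c, Usp18 and Fbxo32 were left out by name. The rule itself reads no measured value, but it was set with earlier results of these data known. The arrays listed 147 such genes, and 121 of them had values on at least 2 arrays of each day and were tested, among 10639 genes and unnamed features tested in all. By group, 36 of 38 proteasome genes, 56 of 73 genes of the ubiquitin enzymes E1 to E3 and 29 of 36 deubiquitinases were tested. A total of 3 symbols match the families without belonging to them by function: Psme3ip1, a binding partner of the activator Psme3, was tested, while Psmc3ip, a recombination factor, and Usp6nl were not. The members with too few values were Psmc3ip, Psme4, Ube2f, Ube2q2, Ube2t, Uchl5, Usp22, Usp35, Usp36, Usp45, Usp53, Usp6nl and the F-box genes Fbxl7, Fbxl13, Fbxl20, Fbxo11, Fbxo15, Fbxo17, Fbxo25, Fbxo31, Fbxo36, Fbxo42, Fbxo44, Fbxw2, Fbxw22 and Fbxw27.

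Ubiquitin is activated by an E1 enzyme, passed to an E2 enzyme and joined to a target protein with the help of an E3 ligase. A large class of E3 ligases is built on cullin scaffolds, on which F-box proteins pick the target, and deubiquitinases reverse the reaction. Chains of ubiquitin send most tagged proteins to the proteasome, whose barrel-shaped core of alpha and beta subunits does the cutting and whose regulatory particle of ATPase and non-ATPase subunits unfolds the substrate. In dividing cells the system times the loss of cyclins and of other cell cycle proteins.

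HBC-3 is a mouse hepatoblast line kept on a STO fibroblast feeder layer, from which the cells were freed with trypsin and replated before RNA was taken. Matrigel is a gel of basement membrane proteins. The groups were the 7 days from day 1 to day 7 of differentiation on Matrigel and the undifferentiated cells of day 0, with 3 arrays lettered A, B and C in each of the 8 groups. Every array carried a Cy3 target of undifferentiated HBC-3 cells as common reference, and on the day 0 arrays both channels held undifferentiated cells. All groups are 1 cell line. The labels leave it unsaid whether A, B and C of a day were separate cultures, and the p-values thus reflect array-to-array spread, which may be technical.

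Values are log2 ratios, likely of the sample over the reference, on arrays centred on their medians. The log base and the direction of the ratio are not stated with the deposited table, so "higher" and "lower" rest on that reading. A value near 0 means about the level of the reference, and a change is a difference of log2 ratios between days, so levels of different genes cannot be compared. Changes are given with ± 1 standard error of the fit. Between 12328 and 22149 of 24157 features had a value on an array. Arrays of day 0 did not agree among themselves, with a correlation across features of 0.78 between A and B, -0.36 between A and C and 0.06 between B and C. The lowest correlation between any 2 of the 24 arrays was -0.53, and changes were therefore also computed with the signs of day 0 turned. The C arrays of days 4 to 7 stood apart: across days they correlated at 0.81 to 0.97, and within a day their correlation with A or B was 0.48 to 0.64. Ratios hold no levels, so the cell type could not be checked against its markers by level. Of 17 markers of hepatoblasts and hepatocytes 4 were tested, and Afp, Igf2 and H19, which fetal liver cells express, rose at day 7. The fourth, Apob, which liver cells secrete in lipoproteins, had a change of -0.38 ± 0.18 at day 7 and did not pass (adjusted p = 0.116).

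Most of the ubiquitin and proteasome genes did not pass the test on any day. A member counted as changed where its adjusted p was under 0.05 in limma's moderated test, with adjustment over all 10639 genes and features. All comparisons with day 0 share the same 3 day 0 arrays and are not independent of each other. At day 1, 1 of 121 members passed, which is 0.826% against 10.9% of everything tested (4.99% higher and 5.92% lower). The count was 9 at day 2 (17.1% of everything tested passed, 9.05% higher and 8.04% lower), 16 at day 3 (24.4%), 14 at day 4 (22.2%), 20 at day 5 (22.9%) and 20 at day 6 (24.8%). At day 7, 21 members passed, or 17.4% of them against 27.6% of everything tested. Of these, 15 rose, where 14.6% of everything tested rose, and 6 fell, where 13.0% of everything fell. With the signs of all day 0 arrays turned, 15 of these 21 calls were lost, namely those of Cul1, Fbxo3, Fbxo9, Psmb5, Psme3, Psme3ip1, Psmg2, Psmg3, Uba3, Ube2d3, Ube2g1, Ube2h, Usp27x, Usp3 and Usp8. In that setting 11.6% of everything tested passed, and the calls of Fbxo2, Fbxo5, Fbxo7, Fbxo8, Uchl1 and Usp33 held. Over the whole course, 6 members passed the moderated F-test (4.96%, against 16.3% of everything tested). Between days 5 to 7 and days 1 to 3, 5 members passed (4.13%, against 7.74%).

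Changes of the members were also small in size. At day 7 the median absolute change was 0.44 over the 121 members and 0.55 over everything tested, and 13 members (10.7%) differed by more than 1 log2 unit, against 22.1% of everything tested. The median standard error was close in both, 0.29 for members and 0.31 for everything tested. Everything tested is an unlike background, however. It held 5660 named genes, and the rest were unnamed features, which were not averaged. Of the 121 members, 67 had several features. Whether averaging made changes of members smaller or their calls fewer was not tested, and shares among named genes alone were not computed. On at least 1 day 39 members passed (32.2%, against 41.4% of everything tested), and none passed as higher on one day and lower on another. Of the 39, 8 passed on 5 or more days and 1, Fbxo8, on all 7. How often everything tested passed on that many days was not computed, and the days share their day 0 arrays.

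**Figure D1:**
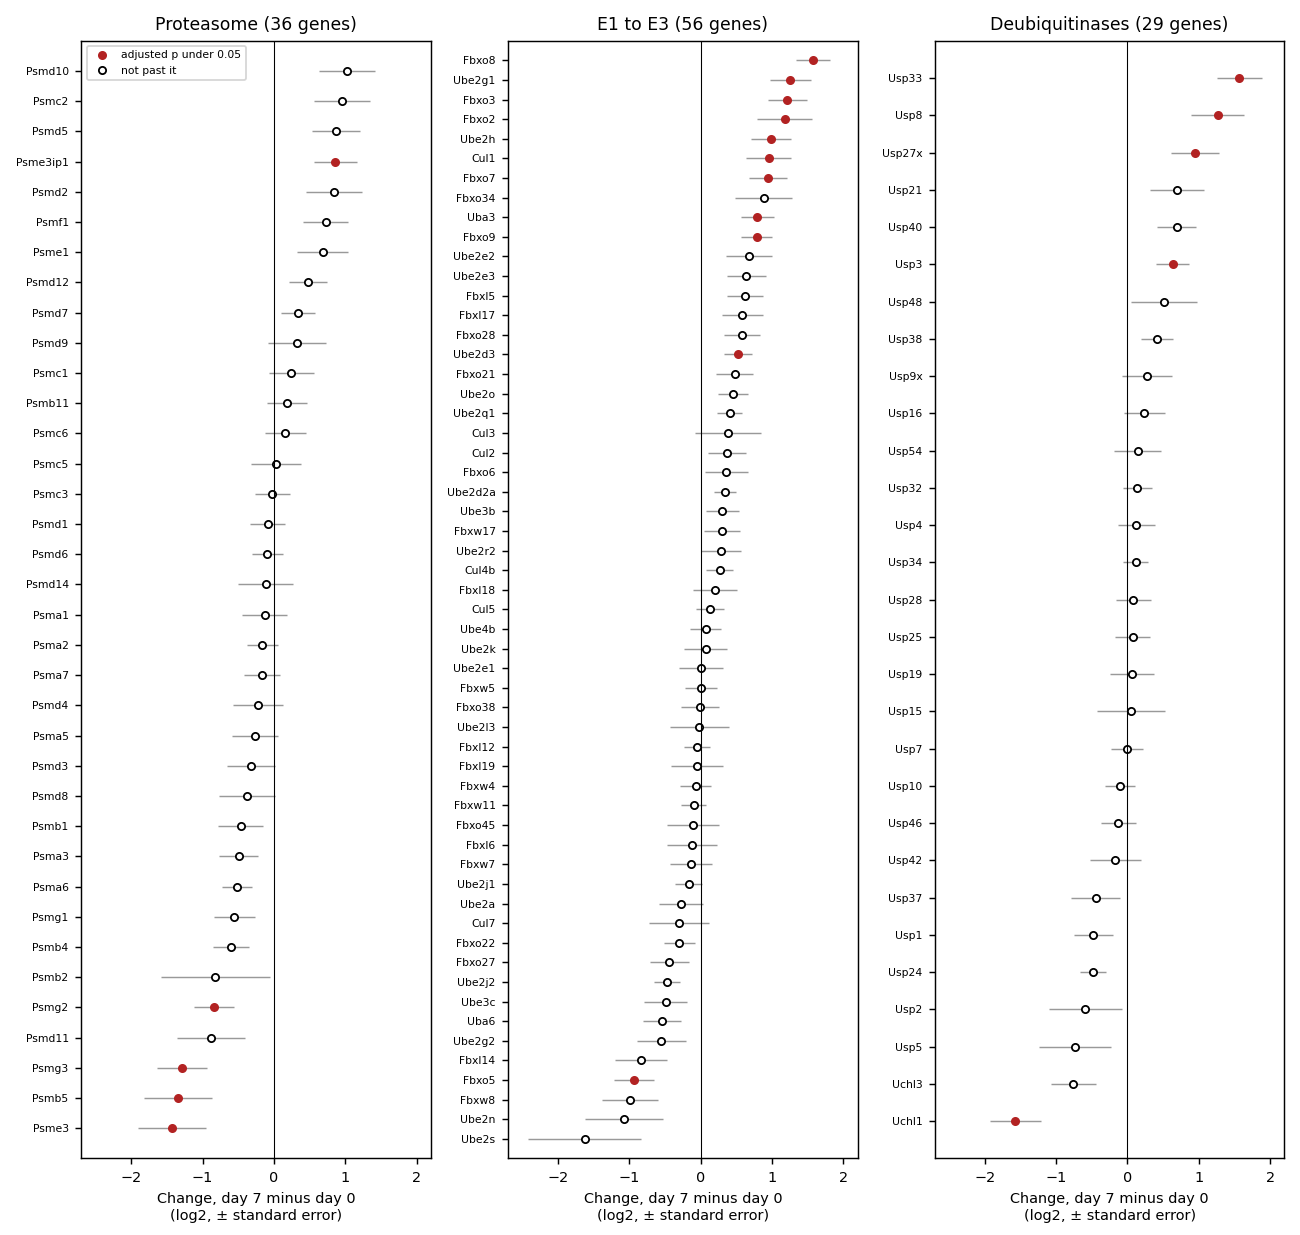
Change of each tested member at day 7 against day 0 (horizontal axis, log2, with its standard error), in 3 panels for 36 proteasome genes, 56 genes of E1 to E3 enzymes and 29 deubiquitinases, sorted by size. Filled points passed an adjusted p of 0.05; the 21 filled points lie mostly on the right in the panels of enzymes and on the left in the proteasome panel, where Psme3, Psmb5, Psmg3 and Psmg2 are filled.

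Among proteasome genes, subunits of the core particle had lower ratios on the later days than at day 0, while subunits of the regulatory particle showed no shared direction. The 10 core subunits measured, leaving aside the thymus-specific gene Psmb11, were all below day 0 at day 7, with a median change of -0.48 and a range of -1.35 to -0.13. Of the 10, 1 passed the test. At day 6 all 10 were again below day 0, with a median change of -0.63. The 6 alpha subunits among them were all below day 0 on days 3, 4, 5, 6 and 7, with median changes of -0.19, -0.43, -0.42, -0.63 and -0.22. Over everything tested the median change was -0.01 at day 7 and -0.02 at day 6.

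Psmb5 encodes the beta subunit with the chymotrypsin-like cutting site, and it was the core subunit that passed at day 7. Its values were -1.02, -0.31 and -1.96 at day 7, against 0.21, 0.43 and 0.11 at day 0, in the order A, B and C used throughout. All arrays of day 7 lay below all arrays of day 0, and array C of day 7 was the lowest. Psmb5 fell by 1.35 on the log2 scale at day 7, with a standard error of 0.47 and an adjusted p of 0.0395. On days 1 to 6 its values were -0.25, 0.12 and -0.38 at day 1, -0.53, -0.02 and -0.44 at day 2, -0.35, -0.97 and -0.59 at day 3, -0.70, 0.06 and -1.82 at day 4, -0.79, -0.17 and -1.35 at day 5, then -1.30, 0.33 and -1.48 at day 6. The C arrays of days 4 to 7 were each the lowest of their day, and array B of day 6 lay above 2 of the day 0 arrays. The day 7 call was lost without array A (-1.37), B (-1.26) or C (-1.42) of day 0, or array A (-1.39) or C (-0.92) of day 7, and Psmb5 was measured by 1 feature. It was also lost with array C of days 4 to 7 left out (change -0.92, adjusted p = 0.0742 in limma), with only days 7 and 0 in the fit (adjusted p = 0.0513 in limma) and with the signs of day 0 turned (change -0.84, adjusted p = 0.277 in limma).

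The remaining core subunits did not pass at day 7. The alpha subunits, which form the outer rings and the gate of the barrel, had changes of -0.13 for Psma1, -0.17 for Psma2, -0.49 for Psma3, -0.27 for Psma5, -0.51 for Psma6 and -0.17 for Psma7. The beta subunits besides Psmb5 had changes of -0.47 for Psmb1, -0.82 for Psmb2 and -0.60 for Psmb4. Psmb11, the thymus subunit, had a change of 0.18 ± 0.28 with an adjusted p of 0.654.

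Over days 1 to 7, 12 of 36 proteasome genes passed on at least 1 day (33.3%, against 41.4% of everything tested). Of these, 8 passed as lower (22.2%, against 21.0%) and 4 as higher (11.1%, against 20.4%). At day 6, 8 of 36 passed (22.2%, against 24.8% of everything tested), 7 lower and 1 higher. Of everything tested 12.6% were lower and 12.2% higher that day. Psma3, Psma5 and Psma6 fell, with changes of -1.09, -1.08 and -0.63 (adjusted p = 0.00622, 0.0188 and 0.0329 in limma). Psma3 had values of -0.61, -1.51 and -0.17 at day 6, against 0.41, 0.57 and -0.02 at day 0. Psma5 had values of -0.37, -1.65 and -1.28 at day 6, against -0.13, -0.08 and 0.15 at day 0. In both genes array B of day 6 was the lowest, and in Psma3 array C of day 6 also lay below every array of day 0 by a small margin. The call of Psma3 held without each array compared. Psma5 lost it without array B (-1.11) or C (-0.996) of day 0, or array B (-0.80) or C (-0.99) of day 6, and Psma6 without array A (-0.58) or B (-0.61) of day 0, or array B (-0.39) of day 6. The number of proteasome genes that fell at day 6 was 5 with array B of day 6 or array A of day 0 left out, and 4 with array B of day 0 left out.

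The arrays behind the lower core ratios were uneven. The median over the 10 core subunits was -0.42, -0.17 and -0.88 on arrays A, B and C of day 7, against -0.11, 0.18 and 0.13 at day 0. The 3 values of day 7 all lay below the 3 of day 0, although array B of day 7 was close to array A of day 0. At day 6 the medians were -0.58, -0.95 and -0.44. Without day 7 array C the median change at day 7 was -0.22, with 7 of 10 subunits lower. In days 5 to 7 against days 1 to 3 all 10 were also lower, with a median difference of -0.40, and none of them passed. The nearest to the threshold was Psmb4, at -0.45 ± 0.15 with an adjusted p of 0.0615.

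**Figure D2:**
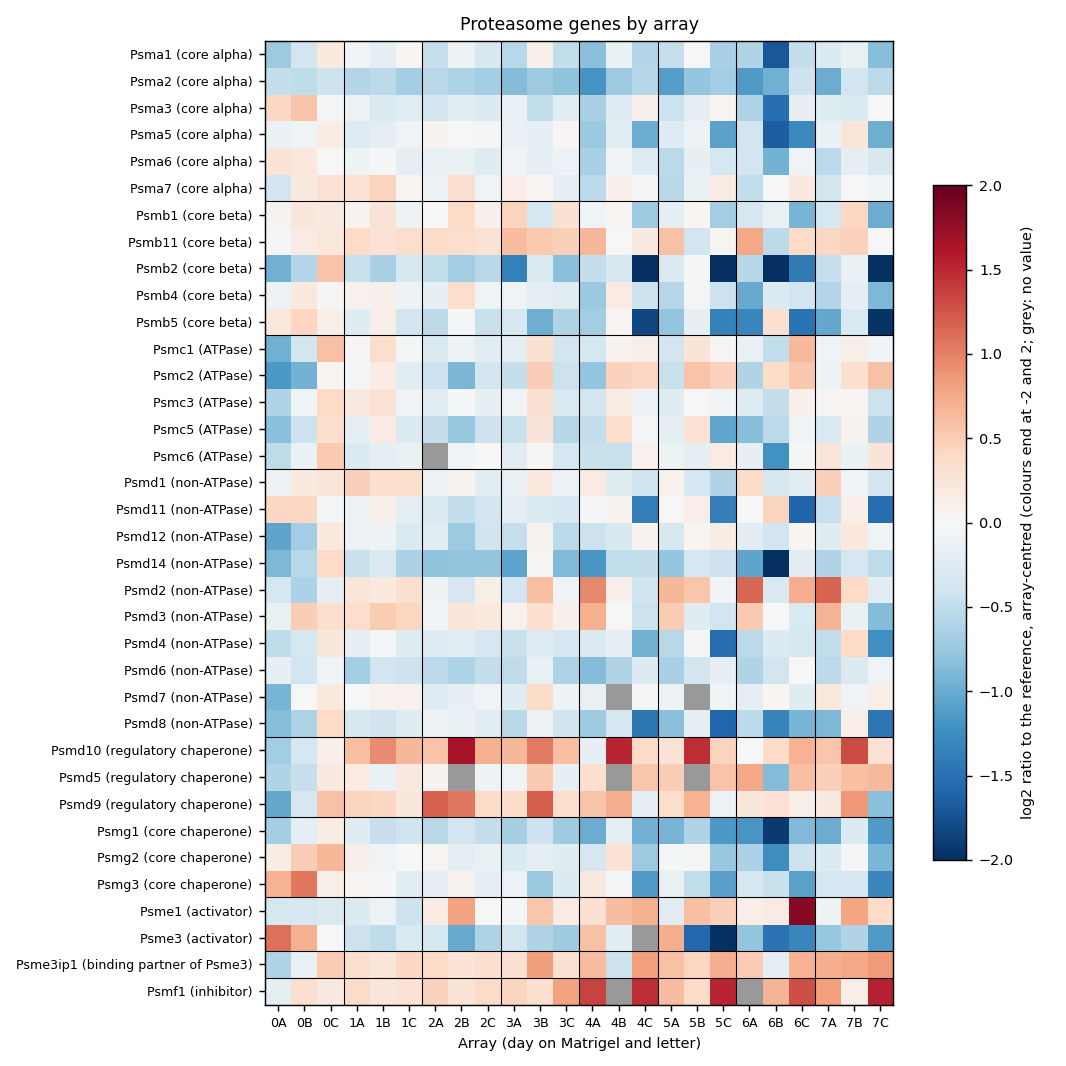
Log2 ratio to the reference (colour, red for higher and blue for lower than the reference, grey for no value) of the 36 tested proteasome genes in rows, ordered by role, on the 24 arrays in columns from day 0 to day 7. The core subunits turn bluer on the later days, by their median most in array B of day 6 and array C of day 7. Psmd10 and Psmf1 are red on most arrays after day 0.

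The regulatory particle gave no call at day 7. Of its 5 measured ATPase subunits, which unfold the substrate, 4 were above day 0, and of the 10 non-ATPase subunits 3 were above and 7 below. Changes ranged from -0.03 for Psmc3 to 0.95 for Psmc2 among the ATPases, and from -0.88 for Psmd11 to 0.84 for Psmd2 among the non-ATPase subunits. The median over the ATPases was -0.84, -0.37 and 0.40 on arrays A, B and C of day 0, a spread wider than on any later day. The direction of their median at day 7, 0.16, turned to -0.25 with the signs of day 0 turned, to -0.11 without day 0 array A and to -0.001 where the day mean was set against 0. For Psmd14, the subunit that takes ubiquitin off the arriving substrate, the change was -0.12 ± 0.39, and for Psmd4, a ubiquitin receptor, -0.23 ± 0.35. The 3 chaperones that help to assemble the regulatory particle were above day 0 at day 7, at 1.03 for Psmd10, 0.87 for Psmd5 and 0.32 for Psmd9, and none of them passed. Psmd10, also known as gankyrin, rose at day 2 by 1.29 (adjusted p = 0.0306), with values of 0.57, 1.65 and 0.72 at day 2, against -0.69, -0.35 and 0.10 at day 0. It lost that call without array A (1.10) or B (1.27) of day 0, or array B (0.95) or C (1.42) of day 2.

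Of the 3 chaperones that help to assemble the core, Psmg3 and Psmg2 fell at day 7, and all 3 fell at day 6. Psmg3 had values of -0.34, -0.33 and -1.30 at day 7, against 0.70, 1.06 and 0.12 at day 0. Every array of day 7 lay below every array of day 0, and array C of day 7 was the lowest. Psmg3 fell by 1.29 at day 7 (standard error 0.35, adjusted p = 0.00968), and also on days 3, 5 and 6, with changes of -1.25 to -1.004. Its day 7 call was lost without array B (-1.07) of day 0, or array C (-0.96) of day 7, and its calls of days 3, 5 and 6 were each lost without 2 or more of the arrays compared, with changes of -1.17 to -0.79. Psmg2 had values of -0.28, -0.04 and -0.91 at day 7, against 0.15, 0.49 and 0.67 at day 0, which did not overlap. It fell at both days, with changes of -0.84 at day 7 and -1.20 at day 6, and the day 6 call held without each array compared. The day 7 call of Psmg2 was lost without array B (-0.82) or C (-0.73) of day 0, or array C (-0.59) of day 7, and with the signs of day 0 turned its change was 0.023. Psmg1, which acts as a pair with Psmg2, fell by 1.08 at day 6 and stood at -0.56 ± 0.29 at day 7, and its day 6 call was lost without array B (-0.78) of day 6.

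Activators of the core moved in opposite directions. Psme3, the nuclear activator, had values of -0.76, -0.60 and -1.14 at day 7, against 1.11, 0.71 and -0.01 at day 0. The 3 arrays of day 7 lay below the 3 of day 0, where array A was the highest. Of the 2 features of Psme3, only 1 had values at both day 0 and day 7, with a change of -1.87. The change of the gene thus mixes features. Psme3 fell by 1.44 at day 7 (standard error 0.48, adjusted p = 0.0311), by 1.58 at day 5 and by 1.80 at day 6. At day 5 its values were 0.72, -1.57 and -2.08, so array A of that day overlapped with day 0. The day 7 call was lost without array A (-1.18) or B (-1.38) of day 0, or array A (-1.47) or C (-1.28) of day 7. At day 5 it was lost without array A (-1.33) or B (-1.53) of day 0, or array B (-1.29) or C (-1.03) of day 5, and at day 6 without array A (-1.54) of day 0. Psme1, a cytoplasmic activator subunit induced by interferon, rose by 1.02 at day 6 with values of 0.11, 0.16 and 1.82 at day 6, against -0.34, -0.33 and -0.29 at day 0. Its call was lost without array A (1.01), B (1.02) or C (1.04) of day 0, or array C (0.46) of day 6. At day 7 Psme1 stood at 0.68 ± 0.36 and did not pass.

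Psme3ip1, a binding partner of Psme3, was the gene of this group that rose at day 7. It had values of 0.73, 0.78 and 0.85 at day 7, against -0.60, -0.14 and 0.51 at day 0. The arrays of day 7 were close together and above day 0, whose 3 arrays differed by more than 1 log2 unit. Its rise of 0.86 (standard error 0.30, adjusted p = 0.038) was lost without array A (0.60) or B (0.83) of day 0, or array A (0.89), B (0.87) or C (0.83) of day 7. Psmf1, an inhibitor of the core that also aids its assembly, rose at day 4 by 1.31, with values of 1.35 (A) and 1.48 (C) at day 4, against -0.18, 0.32 and 0.18 at day 0. Its call was lost without array A (1.17) of day 0, or array C (1.25) of day 4, and at day 7 it stood at 0.73 ± 0.32 with an adjusted p of 0.093.

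The promoter of Psmb5 is shown because this core subunit passed at day 7, beside those of Fbxo8, which rose on every day, and Fbxo5, which fell from day 2 on. The 100 bases before the annotated start are given on the gene's strand, from RefSeq for GRCm38.p6: chr14:54617996-54618095 (minus strand) for Psmb5, chr8:56551054-56551153 (plus strand) for Fbxo8 and chr10:5805466-5805565 (minus strand) for Fbxo5. Capitals mark matches to TGACNNNGC in Psmb5, to CCGGAAG (read as CTTCCGG) in Fbxo8 and to CCAAT (read as ATTGG) in Fbxo5.
Psmb5: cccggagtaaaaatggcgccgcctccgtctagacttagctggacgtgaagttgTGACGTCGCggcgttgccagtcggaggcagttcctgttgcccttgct
Fbxo8: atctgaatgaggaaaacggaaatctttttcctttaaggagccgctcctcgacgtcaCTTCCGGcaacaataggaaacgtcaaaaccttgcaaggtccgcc
Fbxo5: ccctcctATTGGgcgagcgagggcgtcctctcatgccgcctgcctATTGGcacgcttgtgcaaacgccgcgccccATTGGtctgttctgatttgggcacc
The match in Psmb5, TGACGTCGC, lies at -47 to -39 from the start, and the match in Fbxo8 at -44 to -38. Fbxo5 holds 3 copies of ATTGG, which begin at -93, -55 and -25.

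A total of 10 motifs were searched on both strands of windows from 250 bases before to 50 bases after the start, for 117 of the 147 members and for 27025 genes in all. The motifs were TGACNNNGC, the core of sites of antioxidant response factors, the cell cycle element TTTGAA, the NF-Y box CCAAT, the cyclic AMP response element TGACGTCA, the forkhead motif GTAAACA and the NRF1 site by its name. They also held the E2F motifs TTTGGCGC with TTTCCCGC and the shorter form TTCCCGC, which lies within the one before it. The last of the 10 was the ETS motif. CCGGAAG, the core of sites of the ETS family, was found in 13 of 32 proteasome windows (40.6%), 12 of 56 windows of E1 to E3 genes (21.4%) and 6 of 29 of deubiquitinases (20.7%), against 9.12% of all windows. Of the genes called at day 7, Psmg3, Psme3, Fbxo2, Fbxo8 and Usp8 held it, as did many that were not called. TGACNNNGC was found in 5 of 32 proteasome windows (15.6%), 11 of 56 windows of E1 to E3 genes (19.6%) and 7 of 29 of deubiquitinases (24.1%), against 12.5% of all. CCAAT was found in 40.6% of proteasome windows, 30.4% of those of E1 to E3 genes and 10.3% of those of deubiquitinases, against 37.9% of all. A match describes the letters in the window and is not evidence of binding.

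Among the enzymes that attach ubiquitin, 11 of 56 passed at day 7 (19.6%, against 27.6% of everything tested), 10 higher and 1 lower. Over days 1 to 7, 19 of the 56 passed on at least 1 day (33.9%, against 41.4% of everything tested). Of these, 15 passed as higher (26.8%, against 20.4%) and 4 as lower (7.14%, against 21.0%). The median change of the 56 genes at day 7 was 0.16, against -0.01 for everything tested.

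Both measured E1 genes passed on some day, in opposite directions. Uba3, the catalytic subunit of the enzyme that activates the ubiquitin-like protein NEDD8, rose at day 7 by 0.80 (standard error 0.23, adjusted p = 0.0146) and at day 5 by 0.68. Its values were 0.79, 0.12 and 0.57 at day 7, against -0.37, -0.32 and -0.20 at day 0. The day 7 arrays all lay above those of day 0, but the call was lost without array A (0.76) or B (0.78) of day 0, or array A (0.65) of day 7. The day 5 call was lost without array A (0.64) or B (0.66) of day 0, or array A (0.65) or C (0.61) of day 5. Uba6, an E1 for ubiquitin itself, fell on days 4, 5 and 6, with changes of -0.88, -0.81 and -0.85, and stood at -0.55 ± 0.27 at day 7 with an adjusted p of 0.131. At day 4 its call was lost without array A (-0.82) or B (-0.94) of day 0, or array A (-0.63) or C (-0.82) of day 4, at day 5 without array A (-0.75), B (-0.86) or C (-0.81) of day 0, or array A (-0.80) or C (-0.61) of day 5 and at day 6 without array A (-0.79) or B (-0.91) of day 0, or array C (-0.63) of day 6.

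Of 18 E2 enzymes tested, Ube2g1, Ube2h and Ube2d3 rose at day 7 and none fell (16.7% passed, against 27.6% of everything tested). Ube2g1 had values of 0.23, 0.39 and 1.35 at day 7, against -0.71, -0.58 and -0.51 at day 0. Each array of day 7 lay above each array of day 0, and array C of day 7 was the highest. Ube2g1 rose by 1.25 ± 0.29 at day 7 (adjusted p = 0.00346), and the call held without each array compared. With the signs of day 0 turned Ube2g1 no longer passed. It also rose at day 5, by 0.88, a call that was lost without array A (0.83) or B (0.89) of day 0, or array A (0.90), B (0.82) or C (0.92) of day 5. Ube2h, an E2 that works with the CTLH ligase, rose on days 4, 5 and 7, by 1.04, 1.17 and 0.98. Its day 5 call held without each array compared, while the day 7 call was lost without array C (0.81) of day 0, or array B (0.84) of day 7, and the day 4 call without array A (0.86) of day 4. Ube2d3, an E2 shared by many ligases, rose by 0.53 at day 7 with an adjusted p of 0.0485, and lost the call without array B (0.49) or C (0.42) of day 0, or array A (0.56), B (0.54) or C (0.47) of day 7.

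Other E2 enzymes passed on 1 or 2 days. Ube2s, which extends ubiquitin chains for the anaphase-promoting complex in mitosis, fell at days 3 and 5, with changes of -2.43 and -2.50. Those were the largest falls of any member on any day, and at day 7 Ube2s stood at -1.63 ± 0.79 with an adjusted p of 0.131. Its values were -0.53, -0.72 and -4.76 at day 5, against 0.34, 1.04 and 0.12 at day 0. Array C of day 5 lay far below the other 2, and without it the change at day 5 was -1.13 and still passed. The day 5 call was lost without array B (-2.24) of day 0, and the day 3 call without array A (-2.51) or B (-2.16) of day 0, or array B (-2.38) of day 3. Ube2r2, an E2 of cullin ligases, rose at day 2 by 0.90, Ube2d2a and Ube2q1 at day 3 by 0.46 and 0.62, and Ube2e2 at day 5 by 0.94. Ube2r2 lost its call without array A (0.86), B (0.95) or C (0.90) of day 0, or array A (0.96) or B (0.71) of day 2. Ube2d2a lost it without any 1 of the 6 arrays compared, with changes of 0.40 to 0.49. Ube2q1 lost it without array A (0.56) or B (0.61) of day 0, or array B (0.58) of day 3, and Ube2e2 without array A (0.91), B (1.005) or C (0.92) of day 0, or array B (0.93) or C (0.85) of day 5.

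HECT and U-box ligases, which bind the target themselves, gave few calls. Ube3b rose at days 4 and 6 by 0.66 and 0.64, with adjusted p of 0.0457 and 0.0495, and each call was lost without any of the 3 day 0 arrays. The day 4 call was also lost without day 4 array A or C and the day 6 call without any array of day 6, with changes of 0.41 to 0.77 in all. Ube3c stood at -0.49 ± 0.30 at day 7 and Ube4b, the U-box ligase, at 0.07 ± 0.22.

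The cullins, scaffolds of a large ligase class, gave 1 call at day 7 among 6 genes tested (16.7%, against 27.6% of everything tested). Cul1, the scaffold that F-box proteins join, rose at day 7 by 0.95 (standard error 0.31, adjusted p = 0.0289). Its values were 1.04, 0.28 and 0.80 at day 7, against -0.39, -0.27 and -0.07 at day 0. The day 7 arrays lay above those of day 0, and the call was lost without array A (0.88) or B (0.94) of day 0, or array A (0.79) or C (0.91) of day 7. The other cullins did not pass at day 7: Cul2 was at 0.37 ± 0.27, Cul3 at 0.38 ± 0.47, Cul4b at 0.27 ± 0.19, Cul5 at 0.13 ± 0.20 and Cul7 at -0.30 ± 0.42.

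Of 27 F-box proteins tested, 5 rose and 1 fell at day 7 (22.2% passed, against 27.6% of everything tested). Fbxo8, Fbxo2 and Fbxo5 were 3 of the 6 members that passed over the whole course.

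Fbxo8, an F-box protein with a Sec7 domain, rose on all 7 days. Its values were -0.39, -0.50 and -0.04 at day 0, 0.85, 0.56 and 0.81 at day 1, 0.92, 0.55 and 0.91 at day 2, then 0.77, 0.88 and 0.82 at day 3. On the later days they were 0.87, 0.72 and 0.90 at day 4, 1.29, 1.25 and 0.65 at day 5, 1.22 (A) and 0.30 (C) at day 6, then 1.54, 1.16 and 1.09 at day 7. Every measured array from day 1 on lay above every array of day 0. The rise was 1.05 ± 0.24 at day 1 (adjusted p = 0.00933) and 1.57 ± 0.24 at day 7 (adjusted p = 0.00013), and over the whole course the adjusted p was 0.0038. At day 1 it was the 1 member that passed. The day 1 call was lost without array B (0.95) of day 0 and the day 6 call without array A (0.60) of day 6, while the calls of days 2, 3, 4, 5 and 7 held without each array compared. With the signs of day 0 turned Fbxo8 still passed at day 7 and did not pass at day 1 or over the whole course (adjusted p = 0.19 for the course). Its day 7 change came from 1 feature with enough values.

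Fbxo2, which binds sugar chains of misfolded glycoproteins, rose from day 2 to day 7 with its highest day mean at day 2. Its values were -0.05, 0.29 and 0.34 at day 0, 1.13, 1.02 and 1.26 at day 1, 1.65, 2.91 and 1.89 at day 2, then 1.70, 2.48 and 1.85 at day 3. On days 4 to 7 they were 1.91, 2.75 and 1.50 at day 4, 1.85, 2.36 and 1.59 at day 5, 1.02, 2.27 and 2.31 at day 6, then 1.55, 1.68 and 0.88 at day 7. The mean was 2.15 ± 0.67 at day 2 and 1.37 ± 0.43 at day 7, against 0.19 ± 0.21 at day 0 (SD, n = 3 each). Array B was the highest of its day on days 2, 3, 4, 5 and 7. Fbxo2 rose by 1.96 ± 0.38 at day 2 (adjusted p = 0.00159), the largest rise of any member on any day, and by 1.18 ± 0.38 at day 7 (adjusted p = 0.027). The calls of days 2 to 6 held without each array compared. The day 7 call was lost without array A (1.06) or B (1.22) of day 0, or array A (1.09) or B (1.02) of day 7, and the whole-course call (adjusted p = 0.0086) without day 0 array A (adjusted p = 0.0612).

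Fbxo5, an inhibitor of the anaphase-promoting complex that is also called Emi1, fell from day 2 to day 7. Its values were -0.26, -0.27 and 0.12 at day 0, -0.76, -0.39 and -0.46 at day 1, -1.21, -1.24 and -1.35 at day 2, then -1.58, -0.74 and -1.71 at day 3. On days 4 to 7 they were -0.98, -1.10 and -1.56 at day 4, -0.94, -0.98 and -1.67 at day 5, -0.86, -1.32 and -1.71 at day 6, then -0.88, -0.97 and -1.35 at day 7. All arrays from day 1 on lay below all arrays of day 0, and array C was the lowest of its day on days 2 to 7. Fbxo5 fell by 1.13 at day 2 (adjusted p = 0.00815) and by 0.93 at day 7 (adjusted p = 0.0165). The calls of days 2, 3 and 6 held without each array compared. Day 4 was lost without array C (-0.91) of day 4, day 5 without array C (-0.83) of day 5 and day 7 without array C (-0.81) of day 0, or array C (-0.79) of day 7. Over the whole course the adjusted p was 0.0192, and 0.0633, 0.072 and 0.0734 without day 0 array A, B or C.

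Fbxo3, Fbxo7 and Fbxo9 rose as well. Fbxo3 had values of 0.67, 0.77 and 1.20 at day 7, against -0.32, -0.42 and -0.27 at day 0. The 3 arrays of day 7 lay above the 3 of day 0, which were close together. Fbxo3 rose by 1.22 ± 0.28 at day 7 (adjusted p = 0.00331), and by 0.83 to 1.04 on days 3 to 6. The day 7 call held without each array compared, though not with the signs of day 0 turned, and 1 of its 4 features had a change of the opposite sign, at -0.06. The call was lost at day 3 without array A (0.84) or B (0.79) of day 0, or array A (0.81), B (0.87) or C (0.81) of day 3 and at day 4 without array A (0.85) or B (0.80) of day 0, or array B (0.90) or C (0.58) of day 4. It was lost at day 5 without array C (0.68) of day 5 and at day 6 without array B (0.92) of day 0, or array B (0.78) of day 6. Fbxo7, an F-box protein that binds Psmf1 and whose human gene is mutated in a form of parkinsonism, rose on days 2 to 7 by 0.79 to 1.04. On each of those days its call was lost without day 0 array B and without at least 1 other array, with changes of 0.66 to 0.92. At day 7 it was lost without array B (0.82) of day 0, or array C (0.77) of day 7. Fbxo9 rose at days 3, 5 and 7, by 0.62, 0.65 and 0.79, and at day 7 lost the call without array A (0.71) of day 0, or array A (0.62) of day 7. Fbxo9 lost it at day 3 without array A (0.55) or B (0.62) of day 0, or array B (0.50) or C (0.54) of day 3 and at day 5 without array A (0.57) or B (0.64) of day 0, or array A (0.53) or B (0.64) of day 5. Fbxl14 fell at day 6 by 1.13 and lost the call without array A (-1.12) or B (-0.92) of day 0, or array B (-0.55) of day 6.

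**Figure D3:**
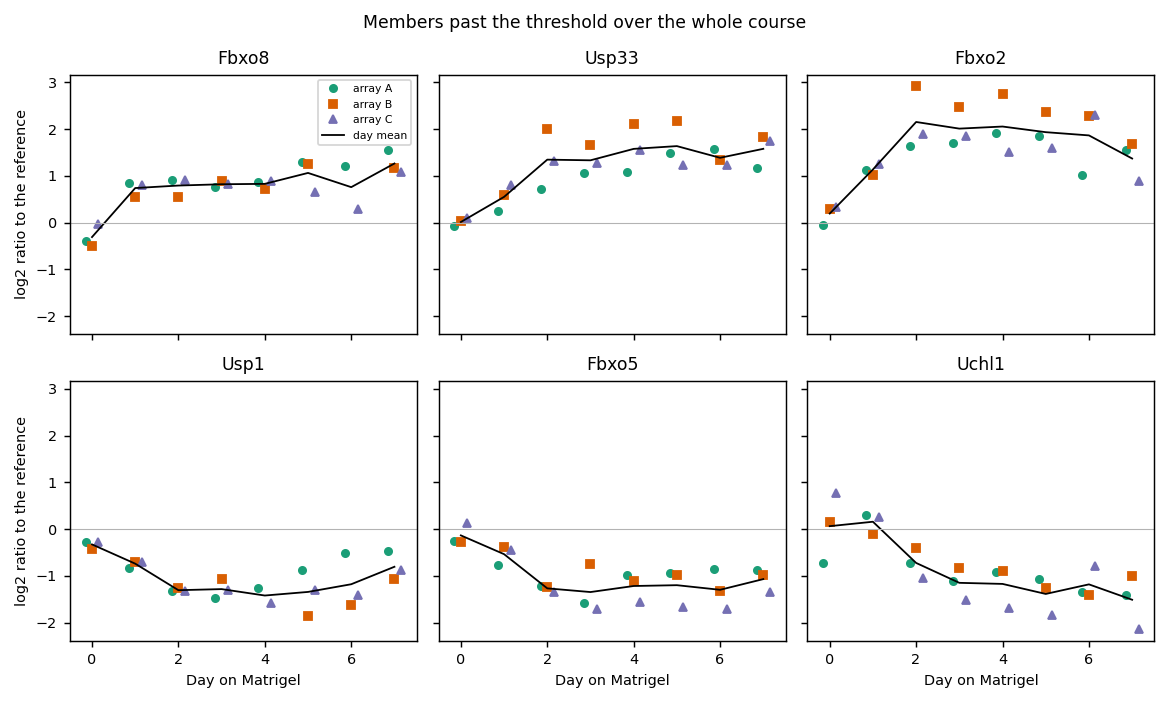
Log2 ratio to the reference (vertical axis) by day on Matrigel (horizontal axis) for the 6 members that passed the whole-course test, with arrays A, B and C of each day as separate symbols and the day mean as a line. Fbxo8, Usp33 and Fbxo2 lie above their day 0 values on all later days, and Usp1 and Fbxo5 on all later days and Uchl1 from day 3 on lie below them, with Usp1 nearer to day 0 again at day 7 in array A.

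Markers of dividing cells were lower after day 0, as were Fbxo5, Ube2s and Usp1. Of 16 such markers tested, 12 fell at day 7 and all 16 were below day 0, with a median change of -1.37. Their median was -1.06, -1.29 and -1.86 on the arrays of day 7, against -0.11, 0.08 and 0.14 at day 0. At day 1 it was already -0.61, -0.15 and -0.54, and day 2 gave -1.48, -1.17 and -1.42. Their part in the changes of Fbxo5, Ube2s and Usp1 was not tested, and in bulk RNA fewer cells of a type and less RNA per cell cannot be told apart. Of 11 fibroblast markers tested, 3 rose at day 7 (Dcn, Pdgfrb and Prrx1), and the median over the 11 was 0.50, 0.04 and 0.05 on the arrays of day 7, against -0.70, -0.55 and 0.11 at day 0. The part of feeder cells in the members that rose was not tested.

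Among deubiquitinases, at day 7, 5 of 29 passed (17.2%, against 27.6% of everything tested): 4 rose and Uchl1 fell. On at least 1 day 8 passed (27.6%, against 41.4% of everything tested). Of these, 4 passed as higher (13.8%, against 20.4%) and 4 as lower (13.8%, against 21.0%).

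Usp33, a deubiquitinase that acts on receptors and centrosome proteins, rose on days 2 to 7. Its values were -0.08, 0.03 and 0.09 at day 0, 0.25, 0.59 and 0.81 at day 1, 0.72, 2.01 and 1.32 at day 2, then 1.05, 1.67 and 1.27 at day 3. On days 4 to 7 they were 1.08, 2.10 and 1.55 at day 4, 1.50, 2.17 and 1.24 at day 5, 1.58, 1.34 and 1.24 at day 6, then 1.17, 1.82 and 1.74 at day 7. All arrays from day 1 on lay above all arrays of day 0, and array B was the highest of its day on days 2 to 5 and on day 7. Usp33 rose by 1.33 ± 0.32 at day 2 and by 1.56 ± 0.32 at day 7 (adjusted p = 0.00688 and 0.00133). The calls of days 3 to 7 held without each array compared, and that of day 2 was lost without array B (1.004) of day 2. At day 7 Usp33 passed under all 18 alternatives run, and over the whole course its adjusted p was 0.00527.

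Usp8, which frees endosomal cargo of ubiquitin, had values of 0.38, 0.61 and 1.39 at day 7, against -0.54, -0.49 and -0.39 at day 0. The arrays of day 7 all lay above those of day 0, and array C of day 7 was the highest. Usp8 rose by 1.26 ± 0.37 at day 7 (adjusted p = 0.0162) and also at days 3 and 5, by 1.06 and 1.03. The day 7 call was lost without array A (1.23) or B (1.25) of day 0, or array C (0.96) of day 7, and those of days 3 and 5 without any 1 of their 6 arrays, with changes of 0.80 to 1.16. Usp27x, a nuclear relative of Usp22, had values of 0.90, 0.56 and 1.49 at day 7, against 0.20, 0.26 and -0.35 at day 0. Usp27x rose by 0.95 ± 0.34 at day 7 (adjusted p = 0.0447) and by 0.99 at day 5, and at day 7 lost the call without array A (1.03), B (1.06) or C (0.75) of day 0, or array A (0.99) or C (0.69) of day 7. At day 5 it was lost without array A (1.07), B (1.10) or C (0.79) of day 0, or array C (0.64) of day 5. Usp3, which acts on histones, rose by 0.63 at day 7 (adjusted p = 0.0467), and its call was lost without array A (0.63), B (0.59) or C (0.67) of day 0, or array A (0.46) or C (0.65) of day 7.

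Uchl1, a small deubiquitinase abundant in neurons, fell on days 3 to 7. Its values were -0.73, 0.15 and 0.77 at day 0, 0.31, -0.10 and 0.27 at day 1, -0.72, -0.41 and -1.03 at day 2, then -1.10, -0.83 and -1.51 at day 3. On days 4 to 7 they were -0.92, -0.90 and -1.69 at day 4, -1.06, -1.26 and -1.83 at day 5, -1.35, -1.41 and -0.78 at day 6, then -1.40, -0.996 and -2.13 at day 7. The day 0 arrays spanned a range of about 1.5 log2 units, and yet every array of days 3 to 7 lay below the lowest of them. Days 1 and 2 overlapped with day 0. Uchl1 fell by 1.57 at day 7 (standard error 0.35, adjusted p = 0.00303), which held under all 18 alternatives run, and over the whole course its adjusted p was 0.00596. The calls of days 5 and 7 held without each array compared. Day 3 was lost without array B (-1.17) or C (-0.86) of day 0, or array C (-1.03) of day 3, day 4 without array B (-1.19) or C (-0.88) of day 0, or array C (-0.97) of day 4 and day 6 without array B (-1.20) or C (-0.89) of day 0. Uchl3, a close relative of Uchl1, fell on days 3, 4 and 6, with changes of -0.98, -1.04 and -1.73, and stood at -0.76 ± 0.32 at day 7 with an adjusted p of 0.0788. Its values were -0.93 (A) and -2.18 (B) at day 6, against 0.08, 0.54 and -0.08 at day 0. The day 6 call of Uchl3 held without each array compared. Its call was lost at day 3 without array A (-1.03) or B (-0.81) of day 0, or array B (-0.78) or C (-1.06) of day 3 and at day 4 without array A (-1.08) or B (-0.86) of day 0, or array A (-0.88) or B (-0.99) of day 4.

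Usp1, which takes ubiquitin off the DNA repair proteins PCNA and FANCD2, fell on days 2 to 6. Its values were -0.27, -0.43 and -0.27 at day 0, -0.82, -0.69 and -0.70 at day 1, -1.33, -1.27 and -1.32 at day 2, then -1.48, -1.07 and -1.29 at day 3. On days 4 to 7 they were -1.25 (A) and -1.58 (C) at day 4, -0.87, -1.85 and -1.30 at day 5, -0.50, -1.62 and -1.41 at day 6, then -0.47, -1.07 and -0.87 at day 7. Every array of days 1 to 7 lay below every array of day 0, closest in array A of day 7. Usp1 fell by 0.98 at day 2 (adjusted p = 0.0179) and by 0.85 at day 6, and at day 7 the change was -0.48 ± 0.27 with an adjusted p of 0.19. The calls of days 2, 3, 4, 5 and 6 were each lost without at least 1 array, with changes of -0.998 to -0.63. At day 4 that was array C (-0.93) of day 4 and at day 5 array B (-0.76) of day 5. Its whole-course adjusted p was 0.04996, at the edge of the threshold, and it lay between 0.0552 and 0.165 in the alternatives with 1 array left out that lost the call, among them each of the day 0, day 1, day 2 and day 3 arrays. The whole-course call was also lost without centring (adjusted p = 0.0552 in limma), with scaled arrays (0.0699), with the median of its features (0.051) and with array C of days 4 to 7 left out (0.0697). The 2 features of Usp1 had day 7 changes of opposite sign, -1.06 and 0.29. Usp24, a large deubiquitinase, fell on days 2 to 5, with changes of -0.82 to -0.56. Its day 2 call held without each array compared, and each later call was lost without day 0 array B or C or 2 or more arrays of the day itself, with changes of -0.78 to -0.43.

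Between the late and the early days on Matrigel, days 5 to 7 against days 1 to 3, 5 of 121 members passed and all 5 were lower late: Cul7, Uchl1, Fbxo27, Fbxw4 and Usp34. In everything tested 4.23% were lower and 3.51% higher. With arrays scaled to a common spread, Uchl1, Fbxo27 and Fbxw4 lost the call. The difference between late and early days leaves out the day 0 arrays, while the estimate of the spread includes them. Its standard errors take arrays of the same letter as independent across days. In deviations from the day means, such arrays correlated at 0.142 to 0.912 among days 4 to 7 and at 0.194 to 0.441 among days 1 to 3. Cul7, a cullin that joins Fbxw8, had values of -1.52, -0.32 and 0.05 on days 5 to 7 (lowest, median and highest of 7 arrays), against 0.26, 0.50 and 1.28 on days 1 to 3 (9 arrays). The late arrays all lay below the early ones. Late against early, Cul7 was lower by 1.14 (standard error 0.26, adjusted p = 0.0169 in limma), and no longer passed without day 5 array C (-0.98). Its day 0 values were -0.775, -0.357 and 0.467, and the arrays of each of days 1 to 7 overlapped with them. Array B of days 4 to 6 had no value for Cul7.

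Uchl1 had values of -2.13, -1.35 and -0.78 on days 5 to 7 (lowest, median and highest of 9 arrays), against -1.51, -0.72 and 0.31 on days 1 to 3 (9 arrays). The late and early arrays overlapped. Uchl1 fell by 0.79 (standard error 0.20, adjusted p = 0.0249), and lost the call without day 1 array A, day 2 array B, day 3 array A, day 5 array C or day 7 array C, with differences of -0.78 to -0.69.

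Fbxo27, an F-box protein of the glycoprotein-binding type, had values of -1.07, -0.65 and 0.23 on days 5 to 7 (lowest, median and highest of 9 arrays), against -0.60, 0.01 and 0.29 on days 1 to 3 (9 arrays). Array B of day 6 was the one late array above most early ones. Fbxo27 fell by 0.58 (standard error 0.16, adjusted p = 0.0315), and 10 of the 18 arrays compared were each needed for the call, with differences of -0.59 to -0.52. Those were day 1 arrays A and C, all arrays of day 2, day 3 arrays A and C, day 5 array C, day 6 array C and day 7 array A. Fbxw4, an F-box protein with WD repeats, had values of -0.91, -0.27 and 0.05 on days 5 to 7 (lowest, median and highest of 9 arrays), against 0.01, 0.16 and 0.26 on days 1 to 3 (9 arrays). The highest late array lay among the lowest early ones. Fbxw4 fell by 0.45 (standard error 0.13, adjusted p = 0.0371), and lost the call without any array of days 1 to 3, day 5 array B or C, day 6 array B or day 7 array A or C, with differences of -0.47 to -0.39. Its 2 features had day 7 changes of opposite sign, -0.87 and 0.73. Usp34, a large deubiquitinase of the Wnt pathway protein axin, had values of -0.33, -0.16 and 0.12 on days 5 to 7 (lowest, median and highest of 9 arrays), against 0.02, 0.19 and 0.47 on days 1 to 3 (9 arrays). Usp34 fell by 0.34 (standard error 0.10, adjusted p = 0.0447), lost the call without any array of days 1 to 3, 5 or 7 or without day 6 array C, with differences of -0.36 to -0.30, and stood at 0.017 with the median of its features.

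**Figure D4:**
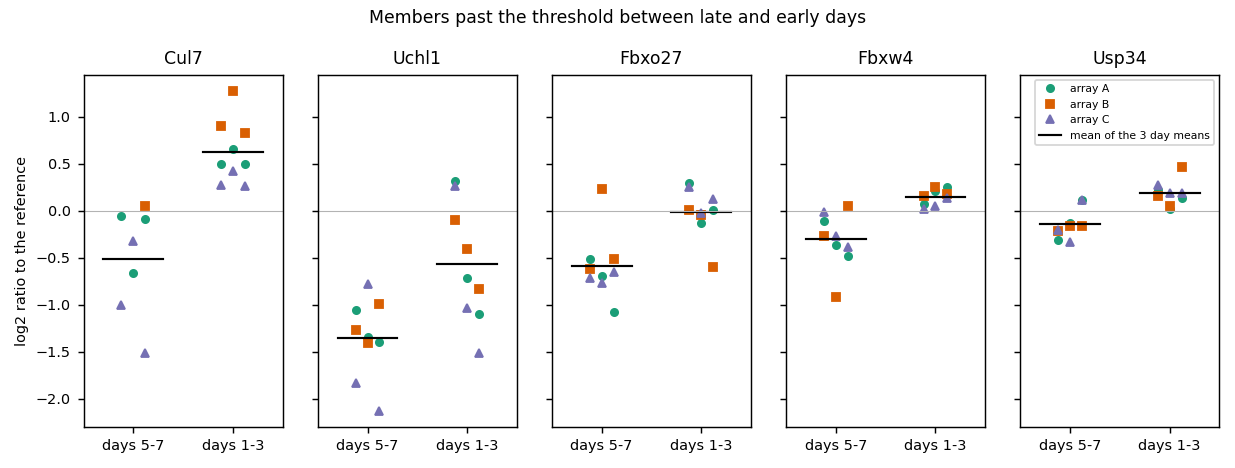
Log2 ratio to the reference (vertical axis) on the arrays of days 5 to 7 (left in each panel) and of days 1 to 3 (right) for the 5 members that passed that comparison, with letters as symbols and the mean of the 3 day means as a bar. The late arrays of Cul7 lie at or below 0.05 and its early arrays at or above 0.26, whereas the groups of Uchl1, Fbxo27, Fbxw4 and Usp34 overlap.

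Medians over a class describe its members together on each array. The median over the 27 F-box genes was 0.24, 0.20 and -0.04 on the arrays of day 7, against -0.07, -0.09 and 0.05 at day 0. Taken gene by gene, however, their median change at day 7 was 0.004, with 14 genes above and 13 below day 0. The median over the 29 deubiquitinases was 0.07, -0.02 and 0.04 at day 7, against -0.08, -0.07 and 0.02 at day 0. For the 18 E2 enzymes it was -0.02, 0.07 and 0.19 at day 7, against -0.21, -0.19 and -0.01 at day 0. For the 3 core chaperones it was -0.35, -0.27 and -1.13 at day 7, against 0.15, 0.49 and 0.15 at day 0. The medians of the chaperones and of the core subunits did not overlap between day 7 and day 0, while those of the F-box genes and the deubiquitinases did.

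**Figure D5:**
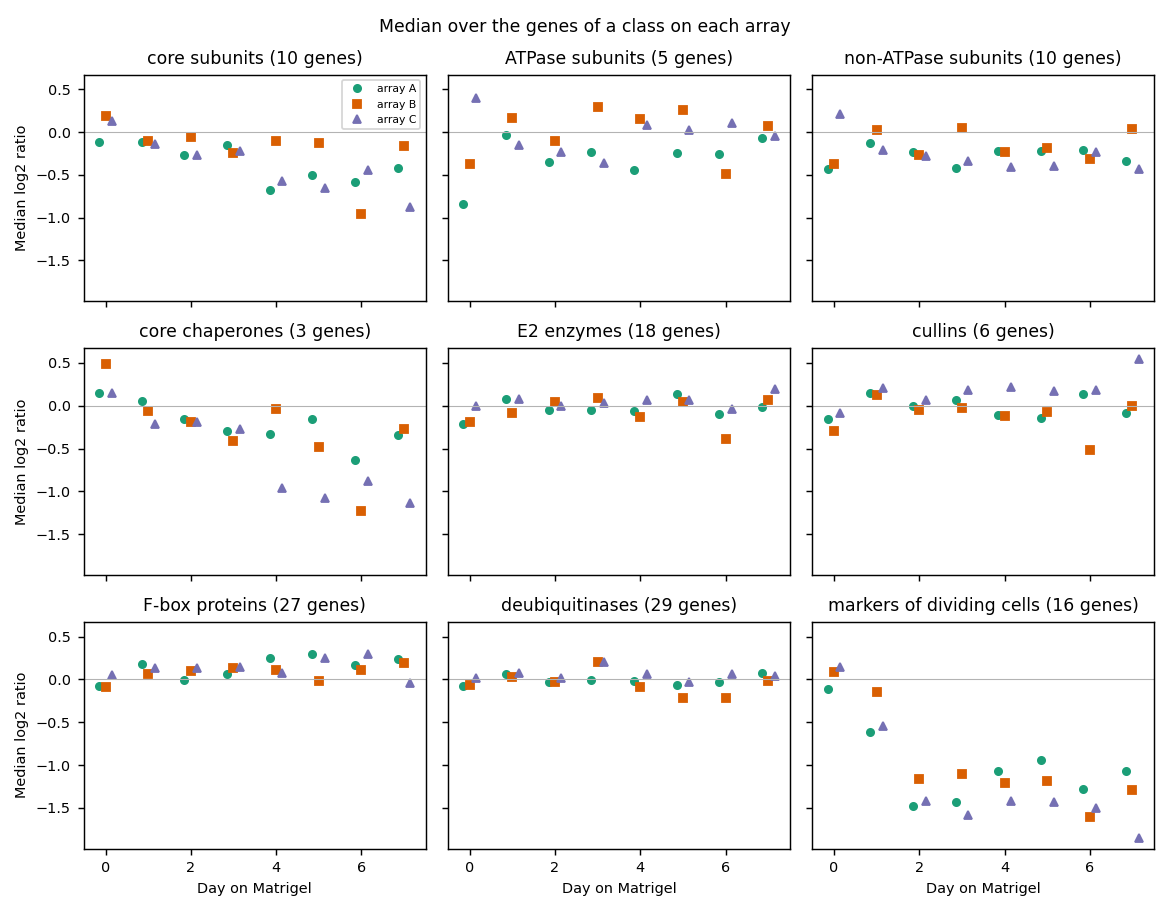
Median log2 ratio over the genes of a class (vertical axis) on each array by day on Matrigel (horizontal axis), with letters as symbols, for 8 classes of members and for 16 markers of dividing cells. The medians of core subunits and core chaperones run down to -0.95 and -1.24 on array B of day 6, those of the enzyme classes stay between -0.52 and 0.56, and the markers of dividing cells lie between -1.86 and -0.94 from day 2 on.

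Of the 21 genes called at day 7, 10 had 1 feature with a change and 11 had several, and in 8 of these 11 all features had the same sign. Fbxo3, Ube2d3 and Usp3 each had 1 feature of the opposite sign. Over all tested members, 67 had several features. In 58 of them several features had a change at day 7, and in 33 of the 58 all agreed in sign.

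Other genes of the ubiquitin system lie outside the symbols above. Of 97 such genes tested, 5 passed at day 1 (5.15%, against 10.9% of everything tested), 8 at day 2 (8.25%, against 17.1%), 19 at day 3 (19.6%, against 24.4%), 20 at day 4 (20.6%, against 22.2%), 20 at day 5 (20.6%, against 22.9%) and 16 at day 6 (16.5%, against 24.8%). At day 7, 25 passed (25.8%, against 27.6% of everything tested), 13 higher and 12 lower, with a median change of 0.01. The 6 named here, chosen after their values were seen, were Rnf13 and Rnf185, ligases of the endosomal or endoplasmic reticulum membrane, Nfe2l2, the antioxidant response factor that a cullin ligase degrades, Rnf128, a ligase also known as GRAIL, the shuttle protein Ubqln4 and Uxt, a prefoldin-like protein. Rnf13 rose by 1.79 ± 0.30, Rnf185 by 1.69 ± 0.36 and Nfe2l2 by 1.67 ± 0.48 (adjusted p = 0.000234, 0.00246 and 0.0135 in limma). Rnf128, Ubqln4 and Uxt fell, with changes of -1.56, -1.43 and -1.36 (adjusted p = 0.00134, 0.0219 and 0.00375).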

How the data were processed

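Each of 24 arrays compared Cy5-labelled cDNA of 1 culture day with Cy3-labelled cDNA of undifferentiated cells, both from amplified RNA, per the labels' protocols. The authors deposited 1 ratio per feature and array, taken here as log2. Base 2 is an assumption, and the log base, direction, background correction and normalization are not stated there. Deposited column medians ran from -0.0253 to 0.0295. Of 24157 features, 13319 carried 1 gene symbol in the platform annotation, 589 carried several and were not named, and 10249 were not listed. Symbols were updated through RefSeq names for 13290 features and kept for 29.

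Each array was centred on its median, features of a gene were averaged, and genes or unnamed features with at least 2 values on each day were tested. The model held 8 day means over all 24 arrays (lmFit and eBayes of limma 3.58.1, run in R 4.3.3, 2-sided). Contrasts were each day minus day 0, the mean of days 5 to 7 minus that of days 1 to 3, and a moderated F-test over the course. P-values were adjusted by Benjamini-Hochberg over all 10639 genes and features per contrast, with a threshold of 0.05, and missing values were not imputed. The fit was checked on simulated data in which arrays were independent. That check cannot cover correlation between arrays of a letter or the disagreement of the day 0 arrays. The number of arrays, 3 a day, limits the precision.

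Members, lists, motifs and tests were chosen with earlier results of these data known. Values by array are given for members past the threshold over the course, and for the largest rises and falls at day 7 in each group. Lists are described by counts and medians. Alternatives changed signs of day 0, centring, scaling, filters, feature averaging, array weights, the arrays included and a block for the letter. Over the 84 pairs of arrays that share a letter on different days, 51 correlations of deviations from the day means were over 0.1, and they ran from -0.544 to 0.912. Letters were not taken as pairs, although these values do not show that the letters are unlinked. The tests thus treat arrays of the same letter as independent, and their p-values leave such correlations out.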

Additional observations from a re-analysis of the deposited data

How the results depend on the processing

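The numbers of members that passed varied between alternatives, as did the share of everything tested that passed. They are given in the order of days 1 to 7, the whole course and the late against the early days, and as reported they were 1, 9, 16, 14, 20, 20, 21, 6 and 5. With the signs of all day 0 arrays turned they were 3, 13, 11, 17, 18, 18, 10, 8 and 5, and with day 0 array C turned 3, 11, 15, 14, 21, 18, 21, 9 and 6. Everything tested passed at 4.84%, 10.4%, 12.8%, 14.1%, 12.6%, 16.7%, 11.6%, 10.2% and 7.74% with all day 0 signs turned. With day 0 array C turned it passed at 16% to 30.1% on single days, 19.7% over the course and 7.86% for late against early days. Without centring the counts of members were 1, 9, 17, 14, 19, 21, 19, 5 and 5, where 11% to 27.5% of everything tested passed on single days, 16.4% over the course and 7.84% for late against early days. With arrays scaled to a common spread they were 24, 27, 29, 21, 26, 26, 31, 12 and 3, where 24.9% to 33.4% of everything tested passed on single days, 24.5% over the course and 7.85% for late against early days. With values required on all 24 arrays they were 0, 6, 11, 9, 15, 15, 18, 4 and 4, where 8.38% to 28.2% of everything tested passed on single days, 16.9% over the course and 8.41% for late against early days. With 1 value on each day they were 3, 11, 21, 17, 23, 22, 26, 8 and 5, where 12.7% to 27.4% of everything tested passed on single days, 16.3% over the course and 7.06% for late against early days. With the median of a gene's features they were 1, 9, 15, 14, 19, 20, 20, 5 and 4, where 10.7% to 27.5% of everything tested passed on single days, 16% over the course and 7.64% for late against early days. With array quality weights they were 60, 60, 71, 31, 41, 32, 46, 67 and 10, where everything tested passed at 59.4%, 63.2%, 64.8%, 36.5%, 44.0%, 32.6%, 48.7%, 67.9% and 12.2%. With array C of days 4 to 7 left out they were 6, 23, 31, 17, 16, 26, 23, 16 and 7, where 21.3% to 37.0% of everything tested passed on single days, 29.8% over the course and 7.87% for late against early days. With the day mean set against 0 they were 7, 21, 28, 27, 31, 37, 35 and 56, and with only the groups compared in the fit 13, 21, 30, 5, 4, 9 and 11 for the days and 4 for the late against the early days. Of everything tested, 16.2% to 36.4% passed on single days and 54.8% over the course with the day mean set against 0. With only the groups compared, 10.5% to 35.9% passed on single days and 6.84% for late against early days.

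Of the 21 members called at day 7, 15 lost the call with all day 0 signs turned and 5 with day 0 array C turned (Psmg2, Ube2d3, Ube2h, Usp27x and Usp8). With only the groups compared 11 lost it (Cul1, Fbxo7, Fbxo9, Psmb5, Psme3ip1, Psmg2, Uba3, Ube2d3, Ube2h, Usp27x and Usp3), and with array C of days 4 to 7 left out 5 (Psmb5, Psme3ip1, Psmg2, Ube2d3 and Usp27x). With arrays scaled 4 lost it (Fbxo2, Psme3ip1, Usp27x and Usp3), and with the day mean set against 0 3 did (Psme3, Psmg2 and Ube2d3). Of the 5 members called in the late against the early days, 3 lost the call with arrays scaled (Fbxo27, Fbxw4 and Uchl1). Fbxo27 also lost it with array C of days 4 to 7 left out. Usp34 lost it with the median of its features and with only the groups compared.

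With the letter as a replicate block, a pairing that the labels do not state, they were 5, 15, 23, 21, 26, 29, 35, 15 and 12, where 14.7% to 34.4% of everything tested passed on single days, 24.2% over the course and 14.5% for late against early days. Arrays of the same letter correlated at 0.142 to 0.912 among days 4 to 7 and at 0.194 to 0.441 among days 1 to 3, but not all pairs between those spans or with day 0 exceeded 0.1. Of the 24 arrays 19 correlated best with their own letter. With 1 array left out at a time the counts ran from 0 to 1 at day 1, 4 to 11 at day 2, 5 to 16 at day 3, 5 to 16 at day 4, 8 to 20 at day 5, 9 to 25 at day 6, 8 to 22 at day 7, 3 to 11 over the course and 0 to 11 for late against early days.

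Signs of single genes were followed only for members called at day 1, at day 7 or in the late against the early days. Among these calls the sign changed in 2 cases. Psmg2 at day 7 stood at 0.023 with the signs of all day 0 arrays turned. Usp34 in the late against the early days stood at 0.017 with the median of its features. The cause was not tested. The median of the 36 proteasome genes at day 7, -0.12, was 0.084 with array C of those 4 late days left out, 0.061 with array quality weights, 0.013 with day 0 array C turned and 0.012 with arrays scaled. The median of the 29 deubiquitinases at day 7, 0.08, was -0.11 with the signs of all day 0 arrays turned. Each group had 3 arrays, day 0 arrays did not agree among themselves, and the direction of the ratio is not stated, which limits all comparisons with day 0.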
